A study of Homo sapiens with 32 samples.

Results

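The comparison described here is that of HEK293 cells stimulated with EGF for 6 h with cells left unstimulated for the same time. It rests on 8 of the 32 libraries of the series, 4 labelled Control and 4 labelled EGF. They were chosen by their treatment and time labels alone, and all genes of the count table were considered: 18618 of 57773 had enough reads to be tested.

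EGF binds EGFR, a receptor tyrosine kinase that passes the signal through RAS, RAF, MEK and ERK to transcription factors such as the ETS-domain ternary complex factors, which sit beside serum response factor (SRF) on the promoters of immediate early genes. Many products of those genes are transcription factors themselves, and others, such as dual-specificity phosphatases and Sprouty and SPRED proteins, damp the same pathway. Parallel signals through PI3K and AKT act on glucose metabolism, lipid synthesis and the FOXO factors, which growth factors keep out of the nucleus.

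HEK293 is an established human embryonic kidney cell line. Every group, the controls included, had been transiently transfected with an expression plasmid for AT1R, the angiotensin II receptor, and was kept without serum before stimulation. Control cells received no agonist, EGF cells 10 µg/l EGF, AngII cells 1 nmol/l angiotensin II and EGF+AngII cells both. A transient transfection leaves cells with unequal amounts of plasmid, and RNA was taken from the whole culture, so that fewer cells making an RNA and less RNA per cell cannot be told apart. The labels do not say whether the 4 libraries of a group came from separate cultures, and p-values therefore measure the spread between these libraries, which may be technical.

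The control libraries held 4445377 to 6168318 reads assigned to genes and the EGF libraries 5738377 to 8540815. The total count, the share of protein-coding reads, the share of U1 RNA, the share held by the top genes and the number of genes with a read did not separate the groups in exact two-sided permutation tests (p from 0.114 to 0.971, smallest possible 0.0286). The transfected receptor transcript, AGTR1, stood at 1096 ± 106 FPM (reads of a gene scaled to 1000000 reads assigned to genes; SD, n = 4) in control and at 1097 ± 94.6 FPM in EGF libraries. Of the markers of the cell line, vimentin, the neurofilaments NEFL and NEFM, XRCC5, KRT8 and KRT18 were present, whereas PAX2 had only 0 to 5 reads in any of the 16 libraries of this time point. Defining markers of blood (PTPRC, at most 2 reads), liver (ALB, at most 4), muscle (MYOD1, at most 1), kidney tubule (UMOD, at most 1) and islet cells (INS, 0 in all 16) were at or near 0, and the fibroblast collagen COL1A1 had 57 to 143 reads. By the GC content of transcripts, 2 of the control and EGF libraries stood apart, control library 1 and EGF library 1, in opposite directions. Named genes that lost their call without either alone are pointed out, except that BOK, ZNF395, LDHAP4 and AK4P3 were not checked for this. The effect of omitting both is given below.

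After 6 h, 322 genes were called different between EGF and control libraries, which is 1.73% of the genes tested. Of these, 194 were higher (1.04%) and 128 were lower with EGF (0.688%). A gene counted as called when its false discovery rate in edgeR's quasi-likelihood test was under 0.05, its fold change above 1.5 and its mean level above 5 FPM in the group where it was higher. By the false discovery rate alone, 1112 genes (5.97%) passed, 670 higher (3.6%) and 442 lower (2.37%). The 2 directions differed in size: 54 of the higher genes were more than 2-fold and 13 more than 4-fold up, whereas 16 of the lower genes were more than 2-fold and 0 more than 4-fold down. In 306 of the 322 genes the 4 EGF and 4 control libraries did not overlap, as in 12% of all genes tested.

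The called genes moved alike in both runs of library numbers, called library series 1 and 2 here: all 194 higher genes were above control within each series, with medians of 0.849 and 0.772 on the log2 scale, and all 128 lower genes below, with medians of -0.753 and -0.709. These values come from the libraries that chose the genes and are a description only. Without control library 1 and EGF library 1 together, 282 genes were called, 199 higher and 83 lower, and 228 of them were among the 322.

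**Figure D1:**
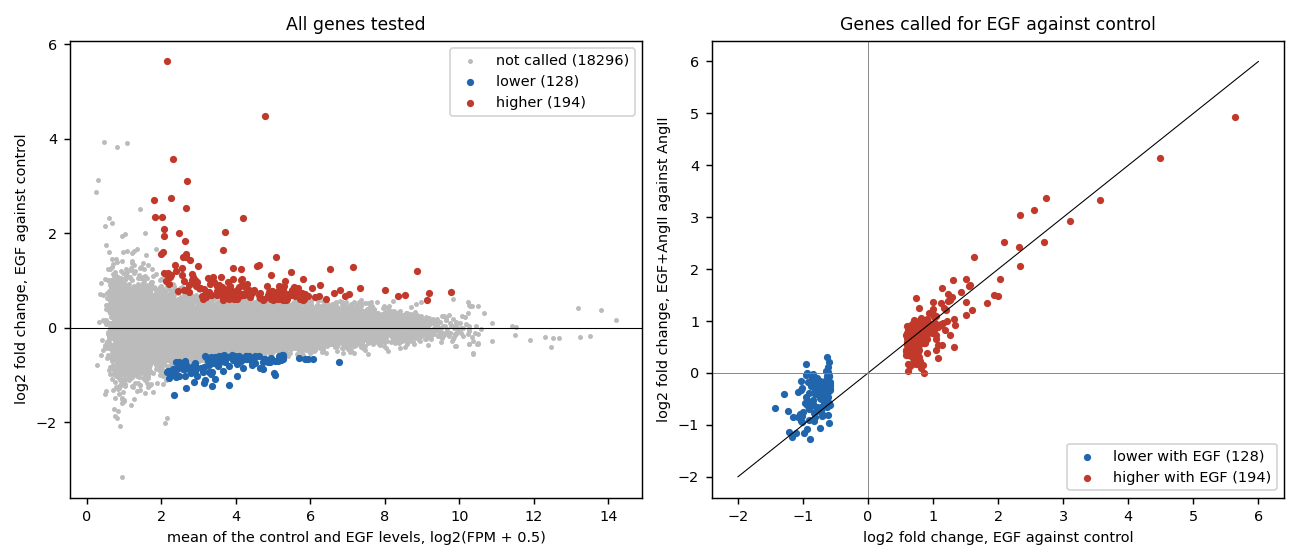
Left, log2 fold change of EGF against control after 6 h (vertical axis) against the mean of the control and EGF levels, as log2(FPM + 0.5), for all 18618 genes tested, with 194 called higher in red, 128 called lower in blue and the remaining 18296 in grey. Right, the fold change of the called genes (horizontal axis) against that of EGF+AngII against AngII, with the line of equality; the changes reach 5.64 upward and -1.43 downward, and 193 of the 194 higher genes lie above 0 on the vertical axis.

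The called genes with the largest changes, ETV5 and EGR1, encode transcription factors. EGR1 encodes a zinc finger factor that is a prototype of the immediate early genes, and it stood at 1.39, 1.91, 2.87 and 2.81 FPM in the control libraries and at 54.6, 54.7, 49.1 and 47.8 FPM in the EGF libraries. All EGF libraries were far above all control libraries, and the rise was 22.3-fold (log2 fold change 4.48 ± 0.17, SE; adjusted p = 2.4e-14). Within library series 1 the difference was 4.69 and within series 2 it was 3.87 on the log2(FPM + 0.5) scale.

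Of the EGR factors and their NAB corepressors, 3 of the 4 members tested were called and all 3 rose (median of the list 2.53, against -0.012 over all genes). Over all genes tested 1.73% were called, which is the share to set beside this and every later list count. EGR3, a relative of EGR1, went from 1.39, 1.12, 0.958 and 0.992 to 8.04, 7.17, 6.15 and 8.37 FPM, a log2 fold change of 2.74. NAB2, which binds EGR proteins and represses their targets, went from 7.86, 5.74, 4.02 and 6.12 to 29.9, 30.6, 27.6 and 29.7 FPM, a log2 fold change of 2.32. The factor and its corepressor were thus both higher in every EGF library, with no overlap for either. EGR2 and EGR4 had too few reads to be tested, with 1 to 14 and 0 to 1 in the control and EGF libraries.

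Of the AP-1 subunits, the leucine zipper proteins that pair as FOS and JUN dimers, 3 of 12 were called, all higher, and the median of the list was 0.42. FOS had 0.694, 0.797, 0.958 and 1.49 FPM in control and 4.96, 5.53, 3.79 and 6.18 FPM in EGF libraries. The groups did not overlap, but the level was low, 3 to 9 reads per control library and 24 to 51 per EGF library. The log2 fold change of FOS was 2.34 ± 0.31, and the call was lost without EGF library 2 (2.30) or EGF library 4 (2.23), when the mean fell under 5 FPM, and with DESeq2. BATF3 rose by 1.14 ± 0.29, and its call rested on EGF library 1, without which it was 1.02 with an adjusted p of 0.062. FOSL2 rose by 0.60 ± 0.11 and lost the call without control library 2 (0.58) or EGF library 4 (0.56). JUN was not called, at 296 ± 56.2 FPM in control and 273 ± 20 FPM in EGF libraries (-0.12, adjusted p = 0.58), and neither was JUNB (0.39, adjusted p = 0.28).

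Other immediate early genes gave 3 calls among 11 tested, all higher. ARC, whose product acts at synapses and in the cytoskeleton, rose from 0.694, 1.44, 1.15 and 3.14 to 12.3, 9.11, 9.15 and 9.22 FPM (2.55 ± 0.28). CSRNP1, a nuclear factor induced by AXIN1, rose from 8.79, 5.90, 9.39 and 10.3 to 20, 22.3, 20.2 and 19.6 FPM (1.26 ± 0.15). Both were separated from control in every library. The orphan nuclear receptor NR4A3 was called at 0.78 ± 0.23 with an adjusted p of 0.045, and the call was kept only when control library 1 was left out; without any of the other libraries the adjusted p was 0.070 to 0.118. Its relative NR4A1 was not called (0.22, adjusted p = 0.52).

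Of the ETS factors and the repressor CIC, 1 of 12 was called. That gene, ETV5, belongs with ETV1 and ETV4 to the PEA3 group of ETS factors, which respond to receptor tyrosine kinases. ETV5 had 1, 2, 0 and 0 reads in the control libraries and 43, 46, 45 and 82 in the EGF libraries. Over the groups this was 3 against 216 reads, a ratio of 58.0 with a counting interval of 19.6 to 284 (95%), and in FPM the EGF libraries stood at 7.36, 6.87, 7.10 and 9.94. The other PEA3 members stayed under 5 FPM and were therefore not called: ETV1, named after its values were seen, had 4 reads in control and 82 in EGF libraries, a ratio of 16.5 (counting interval 6.21 to 62.1), with an adjusted p of 0.00036 for the fitted change. ETV4 went from 0.783 ± 0.417 to 2.43 ± 0.254 FPM (1.62, adjusted p = 0.016). In all 3 genes of the group the EGF libraries lay above the control libraries.

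KLF zinc finger factors gave 2 calls among 13 (15.4%, against 1.73% of all genes tested), KLF5 (0.74 ± 0.12) and KLF13 (0.61 ± 0.08), both higher. KLF13 fell short of the 1.5-fold limit without control library 3 (0.57) or EGF library 4 (0.56). KLF10, a gene known for its response to TGF-beta, passed the false discovery rate but not the fold limit (0.47, adjusted p = 0.0068). KLF8 did the same downward (-0.34, adjusted p = 0.0088). In the MYC network 0 of 12 genes were called, and MYC itself was at 502 ± 24.0 FPM in control and 473 ± 48.1 FPM in EGF libraries (-0.09, adjusted p = 0.59). SRF and its cofactors gave 0 calls among 6, and ELK1 was higher by the false discovery rate alone (0.39, adjusted p = 0.0055).

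**Figure D2:**
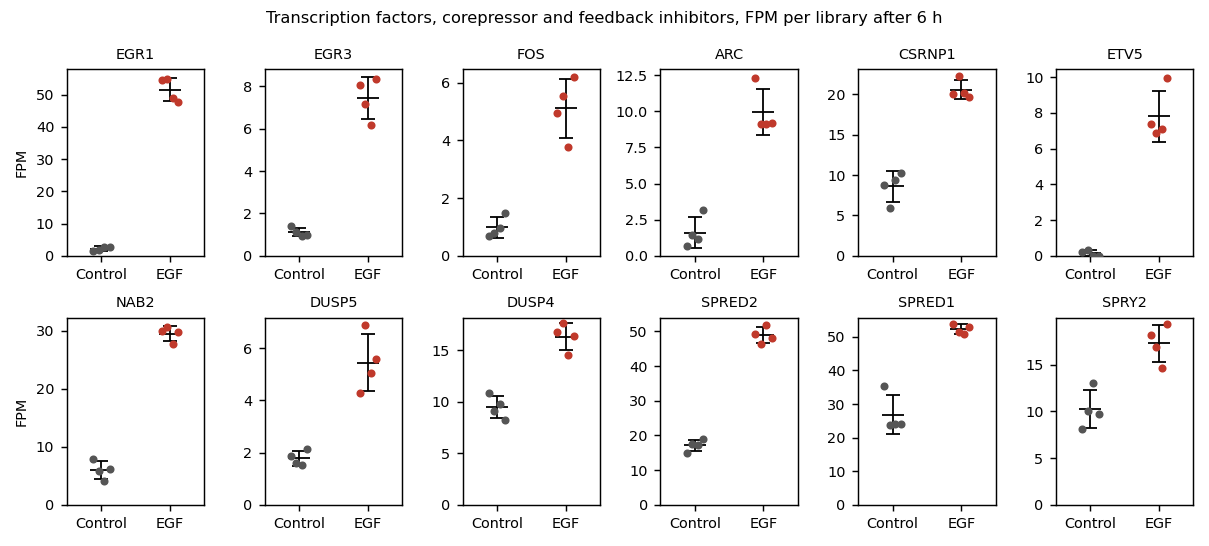
FPM per library (points) with mean and SD (bars) in the 4 Control and 4 EGF libraries after 6 h. Shown are the transcription factors EGR1, EGR3, FOS, CSRNP1 and ETV5, the immediate early gene ARC and the corepressor NAB2. The feedback inhibitors are DUSP5, DUSP4, SPRED2, SPRED1 and SPRY2. Each gene has its own linear axis from 0. In all 12 genes the 4 EGF libraries lie above the 4 control libraries, by the most in EGR1 with 47.8 to 54.7 against 1.39 to 2.87 FPM.

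Feedback inhibitors of the ERK pathway were called in part. Among the dual-specificity phosphatases, which dephosphorylate MAP kinases, 2 of 8 were called, both higher. DUSP5, a nuclear phosphatase of ERK, stood at 1.85, 1.59, 1.53 and 2.15 FPM in control and at 4.28, 6.87, 5.05 and 5.58 FPM in EGF libraries (1.60 ± 0.26). The call of DUSP5 was lost without EGF library 2 (1.48), when its mean fell under 5 FPM. DUSP4 rose from 9.50 ± 1.10 to 16.3 ± 1.31 FPM (0.79 ± 0.18). DUSP6, the cytosolic ERK phosphatase, had 2 to 11 reads in the control and EGF libraries and was not tested.

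Sprouty and SPRED proteins restrain RAS and RAF. Of 6 members tested, 3 were called and all 3 rose. SPRED2 went from 15, 17.5, 17.2 and 18.9 FPM to 49.3, 46.3, 51.9 and 48.0 FPM (1.5 ± 0.10, adjusted p = 4.6e-10). SPRED1 went from 35.4, 23.6, 24.1 and 24.1 FPM to 53.9, 51.6, 50.8 and 53.0 FPM (0.98 ± 0.11). SPRY2 went from 8.10, 10.0, 13 and 9.76 FPM to 18.1, 16.9, 14.7 and 19.4 FPM (0.75 ± 0.14). None of the 3 overlapped between groups, although control library 1 was high for SPRED1. Summed over the list, the level rose from 114 ± 3.66 to 179 ± 7.41 FPM. SPRY1 (0.45) and IL17RD, an inhibitor of FGF signalling (-0.42), passed the false discovery rate but not the fold limit, in opposite directions, and SPRY4 had 0 to 12 reads.

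The receptor, its ligands and the kinases gave 0 calls among 13, 0 among 7 and 1 among 26 genes, where 1.73% of all genes were called. Of the 13 ERBB receptors and inhibitors acting at the receptor, none passed all limits. EGFR was at 48.8, 50.7, 42.3 and 40.7 FPM in control and at 56.1, 51.9, 59.7 and 64.3 FPM in EGF libraries. The EGF libraries were all above the control libraries by a small margin (0.35 ± 0.10, adjusted p = 0.032), under the fold limit. ERRFI1, an inhibitor that binds the EGFR kinase, was not called (0.28, adjusted p = 0.19), and TNK2, a kinase that binds the receptor, was lower by the false discovery rate alone (-0.55, adjusted p = 0.0082). EGF-family ligands and the proteases that release them gave 0 calls among 7, and HBEGF had 3 to 9 reads, AREG 0 to 1 and EREG 0 to 2.

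Among 26 components of the RAS, RAF, MEK and ERK cascade, 1 was called. It was RPS6KA2, a ribosomal S6 kinase that ERK activates, which was lower (29.1 ± 6.00 against 19.0 ± 2.87 FPM; -0.60 ± 0.14). The call did not stand without control library 1 (-0.47) or EGF library 1 (-0.50). MAP2K1, which encodes MEK1, was higher by the false discovery rate alone (0.42, adjusted p = 0.021), and so was RPS6KA3, another S6 kinase (0.41, adjusted p = 0.0081).

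Promoter sequences are shown for some of the factors and feedback inhibitors that rose, which hold motifs through which SRF or EGR proteins are known to bind. In the 500 bases before the start, neither motif was found for ETV5, SPRED2, CSRNP1 or SPRED1. The sequences are of GRCh37, with starts taken from the canonical transcript of the GENCODE annotation, and each is written 5′ to 3′ on the strand of its gene. EGR1 lies at chr5:137801168-137804992 on the plus strand. In the 500 bases before its start a script found 5 CArG boxes, the SRF motif, and 1 EGR site, GCGNGGGCG read on either strand. All 6 are in capitals in the windows chr5:137800738-137800978 and chr5:137801058-137801098.
EGR1 distal: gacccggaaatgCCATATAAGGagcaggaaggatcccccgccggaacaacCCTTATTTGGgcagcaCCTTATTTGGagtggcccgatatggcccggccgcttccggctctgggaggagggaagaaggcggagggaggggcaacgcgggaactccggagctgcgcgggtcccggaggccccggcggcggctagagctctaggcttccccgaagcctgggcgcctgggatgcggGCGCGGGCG
EGR1 proximal: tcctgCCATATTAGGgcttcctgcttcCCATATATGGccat

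FOS at chr14:75745529-75748933 (plus strand) held 1 CArG box, shown in chr14:75745201-75745241, and DUSP5 at chr10:112257665-112271291 (plus strand) held 2 adjoining CArG boxes and 2 EGR sites, of which the window chr10:112257515-112257610 shows both boxes and 1 site in capitals.
FOS: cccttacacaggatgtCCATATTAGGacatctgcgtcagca
DUSP5: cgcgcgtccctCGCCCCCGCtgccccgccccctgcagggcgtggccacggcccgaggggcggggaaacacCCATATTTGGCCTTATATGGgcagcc

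CArG boxes stood in 8 of 189 promoters of the higher genes (4.23%), in 2 of 123 of the lower genes (1.63%) and in 2.39% of the 17409 promoters of all genes tested. EGR sites stood in 67 of 189 promoters of the higher genes (35.4%), in 17 of 123 of the lower genes (13.8%) and in 15.7% of all. The motif is itself rich in G and C, and so were the promoters of the higher genes, with a median GC content of 65.2% against 58.4% for all. Among promoters with 60 to 70% GC the site was in 32.8% of the higher genes and in 20.6% of all, and from 70% GC upward in 61.5% and 46.0%. The AP-1 motif TGANTCA was in 8.99% of promoters of higher genes and in 8.6% of all, the cAMP response element TGACGTCA in 2.65% and 2.90%, and the E-box CACGTG in 18.5% and 12.2%. A match describes letters in a window and is no evidence that a factor binds there.

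EGR sites of 3 genes that rose are shown in capitals, because these genes were among the largest increases and carry the motif near their start. NAB2 had 3 sites (chr12:57482517-57482647 and chr12:57482827-57482847, plus strand), TGFB1 had 2 (chr19:41859895-41859967, minus strand) and SLC2A3 had 1 (chr12:8088923-8088943, minus strand). For NAB2 and SLC2A3 the annotation also has transcripts that start further upstream.
NAB2 distal: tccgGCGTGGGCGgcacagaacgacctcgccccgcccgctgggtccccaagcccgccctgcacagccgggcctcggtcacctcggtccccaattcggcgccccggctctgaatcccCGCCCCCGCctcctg
NAB2 proximal: tgcgtcctGCGGGGGCGgagg
TGFB1: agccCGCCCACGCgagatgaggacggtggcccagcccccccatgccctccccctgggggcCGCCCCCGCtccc
SLC2A3: tgggGCGGGGGCGggggtagt

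Other secreted, receptor and vesicle genes were among the steepest to rise. TGFB1, which encodes the cytokine transforming growth factor beta 1, went from 3.01, 4.63, 5.75 and 6.12 to 20.7, 23.9, 17.5 and 19.4 FPM (2.03 ± 0.20). TNFRSF12A, the receptor of the cytokine TWEAK, went from 0.463, 0.319, 0.958 and 1.32 to 4.62, 5.38, 5.37 and 5.21 FPM (2.70 ± 0.38). CPLX1, a complexin of synaptic vesicle fusion, went from 1.16 ± 0.231 to 5.87 ± 0.628 FPM (2.34 ± 0.27). None of the 3 overlapped between groups, and the calls of TNFRSF12A and CPLX1 were lost with DESeq2.

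Further genes with the largest increases came from several functions. GPR50, an orphan receptor related to the melatonin receptors, went from 0.694, 0.797, 0.192 and 0.992 to 8.72, 5.83, 9.78 and 8.97 FPM (3.56 ± 0.37). ZCCHC12, a zinc finger coactivator of BMP signalling, went from 0.925, 1.44, 1.34 and 1.16 to 9.75, 9.71, 12.8 and 10.9 FPM (3.11 ± 0.30). Both were low in every control library. LBH, a developmental transcription cofactor, rose by 2.09 and the zinc finger gene ZBTB7C by 1.93, and the call of ZBTB7C was lost with DESeq2. RP3.512B11.3, an unnamed transcript listed among the largest increases (2.00), cannot be assigned to a strand, since the strand setting of the counting is not stated.

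Targets of SRF in the cytoskeleton gave 0 calls among 16. VCL, which encodes the focal adhesion protein vinculin, was at 151 ± 11.6 and 193 ± 4.21 FPM (0.35, adjusted p = 0.0016) and ZYX, which encodes zyxin, at 28.9 ± 1.86 and 41.2 ± 4.22 FPM (0.51, adjusted p = 0.0029). Both passed the false discovery rate but not the fold limit, and ZYX was called when the GC content of the transcript was an offset (0.60). YAP targets gave 0 calls among 7, and cytokines and NF-kB feedback genes 0 among 6. Proteases, adhesion and invasion genes gave 1 among 12, TNFRSF12A. Several growth factor targets known from other cells could not be tested, among them PLAU (0 to 6 reads), MMP1 (0 to 2) and IL8 (1 to 4).

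Genes of glucose uptake and glycolysis formed the list with the most calls by number, 6 of 22 (27.3%, against 1.73% of all genes tested). By share, smaller lists stood higher, such as EGR and NAB (75%) and Sprouty and SPRED (50%). The lists were chosen with earlier results of these data known, so these shares are a description only. All 6 called genes were higher, and 18 of the 22 lay above 0 (median 0.22). SLC2A3, a high-affinity glucose transporter, went from 1.16, 2.55, 2.87 and 3.14 to 10.6, 9.56, 9.94 and 6.06 FPM (1.83 ± 0.31). SLC2A1, the widespread transporter GLUT1, went from 41.2, 58.5, 49.4 and 67.3 to 128, 127, 114 and 144 FPM (1.23 ± 0.13). Both transporters were separated from control in every library, although EGF library 4 was low for SLC2A3.

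Enzymes that begin and end the pathway rose too. HK2, a hexokinase, went from 84.7, 78.6, 80.5 and 80.2 to 127, 140, 143 and 151 FPM (0.79 ± 0.08). LDHA, the lactate dehydrogenase subunit that turns pyruvate into lactate, went from 384, 426, 441 and 484 to 718, 754, 693 and 727 FPM (0.74 ± 0.08). The groups were apart by a wide margin in both. PFKP, a phosphofructokinase, rose by 0.68 ± 0.08, and ENO2, an enolase, by 0.63 ± 0.16, of which the call of ENO2 was lost without control library 2 (0.56, adjusted p = 0.066) or EGF library 2 (0.54, adjusted p = 0.076).

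A further 4 glycolytic genes passed the false discovery rate but stayed under 1.5-fold, PGAM1 (0.50), ENO1 (0.31), PGK1 (0.30) and PKM (0.24). Summed over the 22 genes, the level was 6470 ± 290 FPM in control and 7745 ± 339 FPM in EGF libraries. Lactate dehydrogenase and other glycolytic genes have processed pseudogenes with nearly the same sequence, and LDHAP4, such a copy of LDHA, was called higher too (0.85), so that reads of gene and copy cannot be told apart with certainty.

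Of 16 hypoxia-responsive genes tested, 3 were called and all were higher, and 13 lay above 0 (median 0.37), while the summed level went from 827 ± 21.6 to 1188 ± 83.2 FPM. NDRG1, a gene of stress and differentiation, went from 74.0, 84.7, 81.8 and 88.5 to 210, 224, 178 and 197 FPM (1.29 ± 0.10). EPAS1, which encodes the oxygen-regulated factor HIF-2 alpha, rose by 1.23 ± 0.16 and EGLN3, a prolyl hydroxylase that marks such factors for decay, by 0.69 ± 0.12. Among the members without a call, VEGFA was at 38.0 ± 2.77 and 45.8 ± 8.67 FPM (0.27, adjusted p = 0.15), while HIF1A (0.34) and the pyruvate dehydrogenase kinase PDK1 (0.53) passed the false discovery rate only.

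Cholesterol synthesis and uptake gave 2 calls among 24, both higher, with a median over the list of -0.0085. INSIG1, which holds the sterol sensor SCAP in the endoplasmic reticulum, went from 203, 184, 193 and 174 to 359, 317, 311 and 318 FPM (0.79 ± 0.07). HMGCS1, which makes the HMG-CoA of this pathway, passed the false discovery rate only (0.31, adjusted p = 0.011), as did the sterol carrier STARD4 (0.45). Fatty acid synthesis gave 0 calls among 10.

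**Figure D3:**
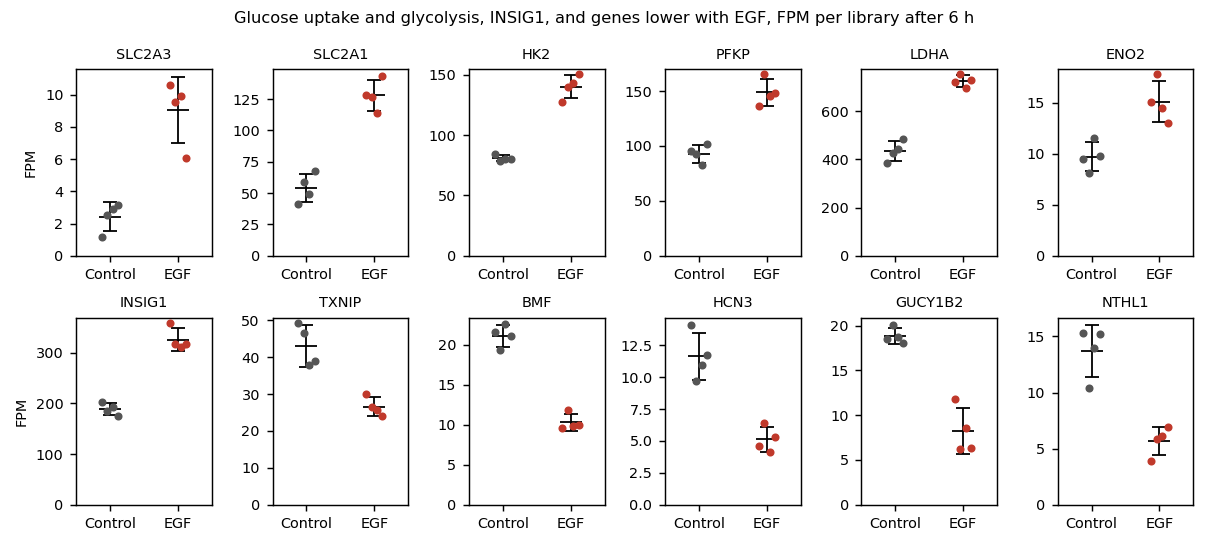
FPM per library (points) with mean and SD (bars) in the 4 Control and 4 EGF libraries after 6 h, for the 6 called genes of glucose uptake and glycolysis, for INSIG1 and for 5 genes that fell (TXNIP, BMF, HCN3, GUCY1B2, NTHL1), each on its own linear axis from 0. The 4 EGF libraries lie above all control libraries in the first 7 genes, as in LDHA with 693 to 754 against 384 to 484 FPM, and below them in the remaining 5, as in BMF with 9.58 to 11.8 against 19.3 to 22.6 FPM.

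Stress and protein synthesis genes moved by small amounts. Of 12 heat shock genes all 12 lay above 0 (median 0.39), 1 was called and 6 passed the false discovery rate. Over all genes tested, 3.6% passed that rate upward. The called gene was HSPH1, a nucleotide exchange factor of HSP70, at 82.1, 70.2, 69.6 and 75.8 FPM in control and 136, 121, 125 and 111 FPM in EGF libraries (0.73 ± 0.08). HSPA8, the constitutive HSP70, went from 1217 ± 31.3 to 1673 ± 56.2 FPM (0.46, adjusted p = 1.3e-05) and stayed under the fold limit. The inducible HSPA1A ranged from 804 to 1386 FPM in control and from 1242 to 1559 FPM in EGF libraries, which overlapped (0.48, adjusted p = 0.10), and it was called with the GC offset (0.59) and without control library 1 and EGF library 1 (0.68).

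Ribosome biogenesis and nucleolar genes gave 0 calls among 35, yet 32 of the 35 lay above 0, with a median of 0.21 and a summed level of 4842 ± 133 FPM in control and 5629 ± 254 FPM in EGF libraries. Of these, 6 passed the false discovery rate upward, against 3.6% of all genes tested. Among them was the RNA helicase DDX21 (0.54, adjusted p = 0.00014), while POLR1B, a subunit of RNA polymerase I, did not pass (0.22, adjusted p = 0.11). Cytosolic ribosomal protein genes gave 0 calls among 75, with a median of -0.024. Genes of the ATF4 and amino acid response gave 2 calls among 24, the secreted hormone STC2 (0.74 ± 0.11) and SLC7A5, a subunit of the large neutral amino acid transporter (0.72 ± 0.13), both higher, whereas ATF4 itself was at 204 ± 41.1 and 172 ± 11.9 FPM (-0.24, adjusted p = 0.15). Unfolded protein response genes gave 0 calls among 18 and cytosolic aminoacyl-tRNA synthetases 0 among 20.

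Genes of the cell cycle gave 0 calls by edgeR. Of 12 D cyclins and CDK inhibitors 3 passed the false discovery rate alone, of 29 genes of G1/S and DNA replication 5, and of 25 of mitosis 0. Over all genes tested, 5.97% did. CCND1, which encodes cyclin D1, stood at 94.1, 85.5, 85.5 and 94.6 FPM in control and at 125, 121, 138 and 147 FPM in EGF libraries. The groups did not overlap, and the change (0.56 ± 0.08, adjusted p = 4.5e-05) passed the false discovery rate but was just under the 1.5-fold limit, which it crossed in 8 of 19 alternatives, with values up to 0.67, among them the GC offset (0.59), the omission of control library 1 or 4 or of EGF library 1 or 2 (0.59 to 0.61), and series 2 alone. Its partner kinase CDK6 (0.54, adjusted p = 0.00018) and the inhibitor CDKN1A (0.39, adjusted p = 0.021) likewise passed the false discovery rate only. In the replication list RRM2, the ribonucleotide reductase subunit, was higher by that criterion (0.46), and the licensing factors MCM5 (-0.33) and CDT1 (-0.52) were lower.

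Among 16 PHLDA and BCL2-family genes tested, 1 was called higher and 1 lower. BCL2, which protects mitochondria against permeabilisation, went from 12, 10.8, 9.58 and 12.9 to 20, 22.9, 26.4 and 24.0 FPM (1.04 ± 0.13). BMF, a BH3-only protein that binds and blocks BCL2 proteins, went from 21.5, 19.3, 22.6 and 21.0 to 9.58, 11.8, 9.78 and 9.94 FPM (-1.03 ± 0.13). In both the 4 EGF libraries were clear of the 4 control libraries. The remaining 14 genes of the list were not called, MCL1 among them (0.35, adjusted p = 0.0068). BOK, a proapoptotic relative of BCL2 that the list did not hold and that was named after its values were seen, rose as BCL2 did (1.12 ± 0.24, adjusted p = 0.0061). RGS regulators of G proteins gave 0 calls among 11, and mRNA decay and antiproliferative genes 0 among 8.

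FOXO factors and their targets, which growth factors are known to repress, lay mostly below control: 14 of 17 were under 0 (median -0.22), and the summed level went from 1819 ± 33.7 to 1606 ± 55.5 FPM. The gene called was TXNIP, an alpha-arrestin that limits glucose uptake, at 49.3, 46.6, 37.7 and 38.9 FPM in control and 30.1, 26.6, 25.7 and 24.0 FPM in EGF libraries (-0.70 ± 0.12). RBL2 (-0.39) and FOXO4 (-0.52) passed the false discovery rate only, and PIK3IP1, an inhibitor of PI3K, did not (-0.51, adjusted p = 0.067). ARRDC4, an alpha-arrestin closely related to TXNIP, moved the other way, from 33.3 ± 1.83 to 60.5 ± 3.28 FPM (0.86 ± 0.09), and of 5 alpha-arrestins tested 1 rose and 1 fell.

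The circadian clock genes gave 5 calls among 17 (29.4%, against 1.73% of all genes tested), 4 higher and 1 lower, with a median of 0.0042. BHLHE40 (0.83 ± 0.13) and BHLHE41 (1.08 ± 0.18), repressors of CLOCK and BMAL1 targets, rose, and so did NPAS2, a paralog of CLOCK (0.78 ± 0.14), and NFIL3, a repressor at D-boxes (0.64 ± 0.15). DBP, an activator at the same D-boxes, fell from 7.63, 7.18, 6.71 and 7.94 to 3.08, 4.33, 3.47 and 5.82 FPM (-0.79 ± 0.20). The call of NFIL3 was lost without control library 1 (0.56) or EGF library 1 (0.58), and that of DBP without control library 4 (adjusted p = 0.059), EGF library 1 or EGF library 3 (adjusted p = 0.071 for either). NR1D2 (-0.35) and CRY2 (-0.36), which also repress clock targets, were lower by the false discovery rate only.

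Developmental signalling lists gave single calls or none. In the TGF-beta, BMP and ID list the call was TGFB1, 1 of 19, and the ID proteins ID2 (0.56) and ID4 (0.49) passed the false discovery rate only. Among Eph receptors and ephrins, 1 of 17, the receptor EPHA2, rose from 14.8, 11.2, 8.24 and 11.2 to 24.0, 21.7, 26.0 and 18.9 FPM (1.00 ± 0.15), while EPHA4 passed the false discovery rate only, downward (-0.52). Notch genes gave 0 calls among 17 and Wnt targets 0 among 10. Of neuronal filament and secretory genes, 2 of 7 rose, the pentraxin NPTX1 (0.66 ± 0.11) and the neurofilament NEFM (0.60 ± 0.10). The calls of both sat at the fold limit: NPTX1 was 0.57 without control library 1, and NEFM was 0.51 without control library 1 and 0.57 to 0.58 without EGF library 2, 3 or 4.

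**Figure D4:**
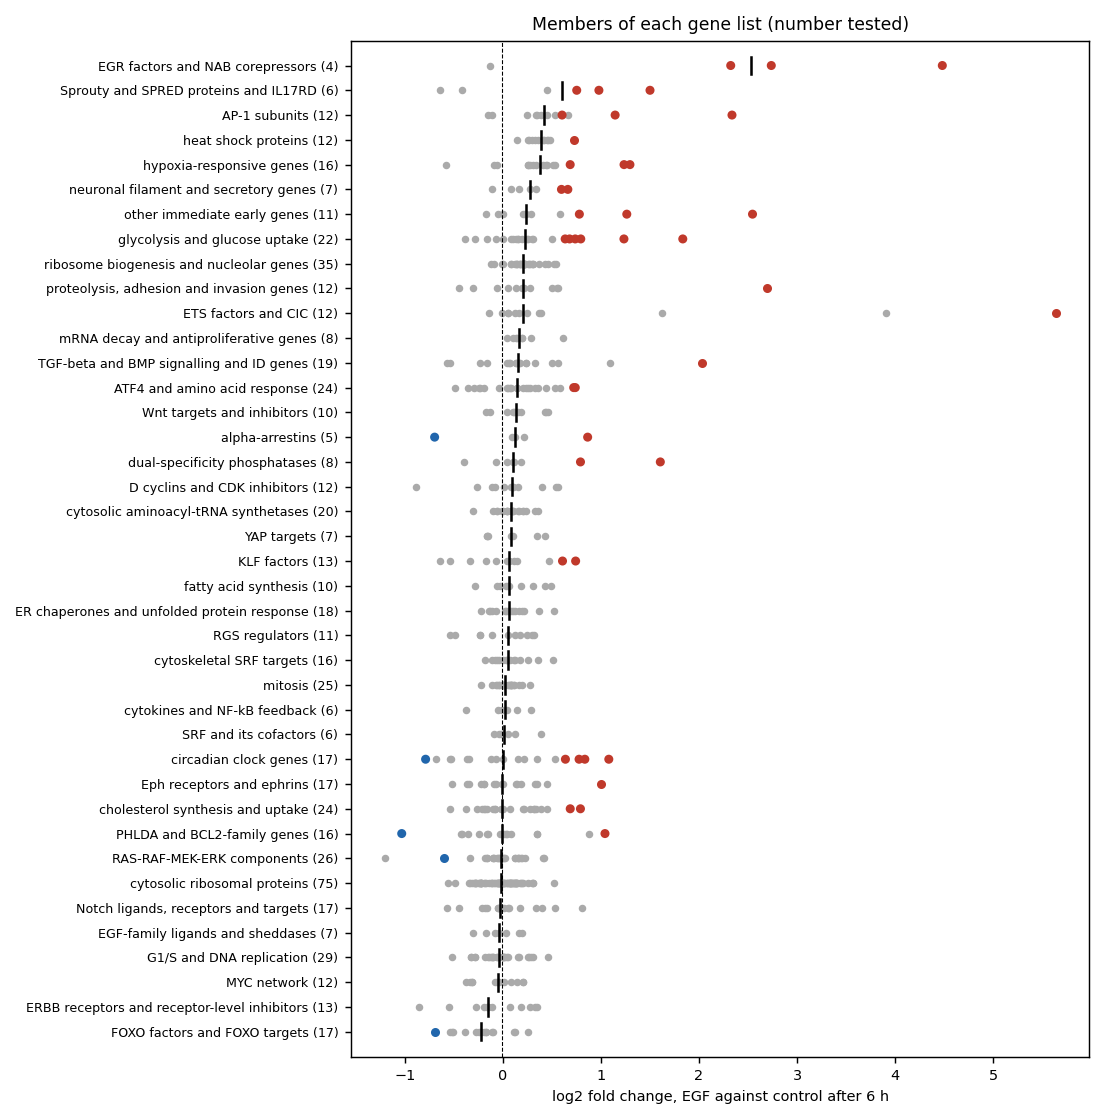
Log2 fold change of EGF against control after 6 h (horizontal axis) for each tested member of the 40 gene lists (vertical axis, number tested in parentheses), with called genes in red (higher) or blue (lower), other members in grey, the list's median as a black bar and the median of all genes, -0.012, as a dashed line. Medians run from -0.22 in the FOXO list to 2.53 in the EGR and NAB list, and most lists have members on both sides of 0.

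The genes lower with EGF are given by the size of the change. As to the reads behind the calls, 79 of the 128 had a mean of 5 to 20 FPM over the 16 libraries and 1 a mean of 100 FPM or more, against 93 and 12 of the 194 higher genes. NTHL1, a DNA glycosylase of base excision repair, went from 15.3, 10.4, 14 and 15.2 to 3.93, 5.83, 6.15 and 6.91 FPM (-1.24 ± 0.21). HCN3, a hyperpolarisation-activated channel, went from 14.1, 9.73, 10.9 and 11.7 to 4.62, 6.43, 4.10 and 5.34 FPM (-1.16 ± 0.17). GUCY1B2, a guanylate cyclase subunit annotated in part as a pseudogene, went from 18.5, 20.1, 18.8 and 18.0 to 11.8, 6.28, 8.52 and 6.31 FPM (-1.22 ± 0.21). In these 3 genes the EGF libraries were all below the control libraries.

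FUT2, a fucosyltransferase of the secretor antigens, fell the most of all called genes (-1.43 ± 0.34), from 8.79, 9.89, 3.64 and 4.13 to 2.74, 3.14, 2.84 and 1.21 FPM. Its control libraries of series 1 were higher than those of series 2, and the call was lost without control library 2 (-1.14, adjusted p = 0.060) or EGF library 4 (-1.17, adjusted p = 0.051). RSG1, a small GTPase of cilia, fell by 1.28, and CYP4X1, a cytochrome P450, by 1.16 on the log2 scale. INPP5D, the phosphatase SHIP1 that removes a phosphate from the PI3K product, went from 51.3, 53.4, 35.6 and 34.7 to 25.7, 27.2, 17.4 and 16.9 FPM (-1.01 ± 0.23). In INPP5D both groups were higher in library series 1, and the EGF libraries stood below control in each series.

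A further 8 of the 15 largest decreases were AMZ2P1 (a pseudogene, -1.10), C10orf10 (-1.08), the dopamine receptor DRD4 (-1.07), the vitamin B12 receptor CUBN (-1.05), the netrin NTN3 (-1.03), BMF, the septin SEPT1 (-1.02) and SRGAP3, which acts on RAC (-1.02). Of these, CUBN and DRD4 lost the call without any of 5 libraries in turn, with adjusted p up to 0.119 and 0.138. NTN3 lost it without control library 1, control library 4 or EGF library 1 (0.060 to 0.064) and SRGAP3 without EGF library 3 (0.056). The control means of these 4 genes were 5.61 to 7.59 FPM. Apart from them and FUT2, the genes among the 15 largest decreases kept their calls without each library in turn.

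By gene class, numbered ZNF zinc finger genes gave 5 calls among 453 (1.1%, against 1.73% of all genes tested). Of these, 1 was higher (ZNF395) and 4 were lower (0.883%, against 0.688% of all). The lower genes were ZNF517, ZNF185, ZNF699 and ZNF815P, between -0.65 and -0.99. ZNF517 lost the call without any of 5 libraries, ZNF699 without control library 1 or EGF library 2 or 4. ZNF815P lost it without control library 3 or EGF library 3. Solute carriers, taken by their symbols, gave 3 calls among 261 (1.15%), all named above. Called genes with SLCO symbols, which rose, were not counted in this class. Receptors named GPR gave 4 among 47 (8.51%), all higher: GPR50, GPR126 (0.88 ± 0.20), GPR137B (0.60 ± 0.16) and GPR137C (0.64 ± 0.14). GPR137B lost the call without control library 3 or EGF library 1 (0.55 and 0.44), and GPR137C without EGF library 1 (0.58). HOX genes gave 1 call among 30 (3.33%), HOXB9 (0.71 ± 0.11). RAB GTPases gave 1 among 63 (1.59%), RAB31 (0.62 ± 0.11, and 0.56 without control library 1), and clustered histone genes 0 among 55. Numbered long intergenic RNAs gave 2 calls among 102 (1.96%), both lower, LINC01125 (-0.66) and LINC00858 (-0.90), and the latter lost the call without any of 5 libraries. ADAMTS9.AS2 rose (1.27 ± 0.26), and its reads cannot be told from those of an overlapping gene without strand.

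Where the depth was greatest, 13 called genes had a mean of 100 FPM or more over the 16 libraries, 12 higher and 1 lower, and they are given here although some were named only after their values were seen. KCTD12, an auxiliary subunit of GABA-B receptors, went from 264, 274, 281 and 300 to 682, 596, 638 and 667 FPM (1.21 ± 0.07, adjusted p = 4.5e-11). TNC, the matrix protein tenascin C, went from 664, 643, 643 and 655 to 1016, 1102, 1090 and 1186 FPM (0.76 ± 0.06). ADAMTS1, a secreted metalloprotease, went from 260, 233, 250 and 261 to 386, 401, 404 and 401 FPM (0.67 ± 0.06). The 4 libraries of each group lay close together in all 3. AK4, a mitochondrial adenylate kinase, rose by 0.83 ± 0.11, and its pseudogene AK4P3 was called too (0.75). PLCXD1, a phospholipase-like gene, was the 1 that fell, from 134, 138, 135 and 137 to 79.6, 82.0, 90.0 and 77.0 FPM (-0.73 ± 0.09). Among the others were NDRG1, INSIG1, LDHA, HK2, PFKP, SLC7A5 and NEFM.

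The change with EGF was also measured in the presence of angiotensin II, in 8 other libraries of the same time point that share none with the comparison above. EGF+AngII against AngII gave 348 called genes (1.87% of those tested), 258 higher and 90 lower. Of these, 180 were called in the same direction in both comparisons, 142 higher and 38 lower, which is 55.9% of the genes of EGF against control and 51.7% of those of EGF+AngII against AngII, and 0 were called in opposite directions. Of the 194 genes higher with EGF alone, 193 had the same sign with AngII present, with a median of 0.784 against 0.796. Of the 128 lower genes, 121 had the same sign, and the median was -0.423 against -0.731. The medians without AngII come from the libraries that chose the genes, which tends to enlarge them. The 2 medians of each set are therefore not on an equal footing.

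The changes of single genes are given side by side. EGR1 rose by 4.14 with AngII present (4.48 without), ETV5 by 4.94 (5.64), SPRED2 by 1.37 (1.5), SLC2A1 by 1.52 (1.23) and BMF fell by 0.93 on the log2 scale (1.03 without). Among the largest decreases, HCN3 was at -1.24 with AngII present and -1.16 without, GUCY1B2 at -1.13 and -1.22 and AMZ2P1 at -1.16 and -1.10, whereas RSG1 was at -0.40 and -1.28 and FUT2 at -0.67 and -1.43. In the test of the difference between the 2 EGF effects, 0 genes were called by edgeR and 0 by DESeq2, with 1491 genes at an unadjusted p under 0.05. Without the filter on low counts edgeR called 48.

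In libraries taken after 24 h, which also share none with those of 6 h, the same stimulation gave 36 called genes, 25 higher (0.117% of 21390 tested) and 11 lower (0.0514%), in a joint fit of both times, in which the 6 h libraries gave 130, 103 higher and 27 lower. The 24 h libraries hold a smaller share of protein-coding reads, 35.6 to 63.4% in the control and EGF groups against 81.6 to 84.7% after 6 h, and its part in the difference between the times was not tested. The genes higher after 6 h had a median of 0.30 after 24 h and 162 of 194 kept their sign, and the genes lower after 6 h had a median of -0.119 and 89 of 128 kept it. In the test of the difference between the times 1 gene passed in edgeR and 51 in DESeq2. The gene of the edgeR test was EGR1, whose change was smaller by 1.96 on the log2 scale after 24 h (2.53 against 4.48; adjusted p = 0.0047), with 1743 genes at an unadjusted p under 0.05. It kept the call without each library in turn, with an adjusted p of 0.0018 to 0.043. ETV5 was at 3.09 after 24 h and EGR3 at 1.69, and their differences from 6 h did not pass (adjusted p = 0.55 and 0.53).

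The GC content of transcripts moved with the comparison. Ordered by transcript GC in 5 classes from lowest to highest, all genes had median changes of 0.075, 0.026, -0.011, -0.060 and -0.115 for EGF against control, and of -0.089, -0.044, -0.004, 0.036 and 0.063 for EGF+AngII against AngII. The slopes thus ran in opposite directions in the 2 comparisons. The level of GC-rich against GC-poor genes was 0.36 above the average of the libraries in control library 1 and -0.407 in EGF library 1. It was between -0.148 and 0.118 in the 6 other control and EGF libraries. With angiotensin II it was 0.298 and -0.268 in AngII libraries 3 and 4 and 0.307 in EGF+AngII library 4. The rest of those libraries lay between -0.088 and 0.185. Without control library 1 and EGF library 1 the medians of EGF against control were 0.016, 0.003, -0.016, -0.012 and 0.007. The called lower genes were the richer in GC, with a median of 55.2% against 50.8% for the higher genes and 47.6% for all. With the GC content as an offset in the fit, 344 genes were called, 228 higher and 116 lower, and 287 of the 322 were among them.

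**Figure D5:**
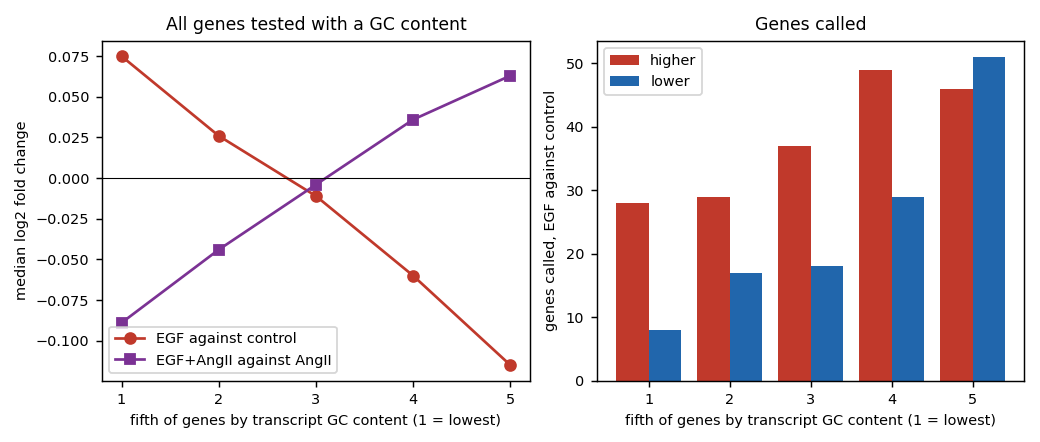
Left, median log2 fold change of all genes tested in 5 classes of transcript GC content (1 = lowest) for EGF against control (red circles) and EGF+AngII against AngII (purple squares) after 6 h. Right, number of genes called higher (red) and lower (blue) with EGF in each class; the red medians fall from 0.075 to -0.115 while the purple ones rise from -0.089 to 0.063, and the lower calls go from 8 in the first class to 51 in the last.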

How the data were processed

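Total RNA depleted of ribosomal RNA was sequenced as paired ends. According to the methods and labels, the authors clipped adapters with cutadapt 1.8.1 through Trim Galore, mapped reads to hg19 with TopHat2 2.0.14 and deposited counts per gene from featureCounts 1.4.6 with Ensembl annotation. A different mapper, HISAT2, is named in the design text. Whether reads were counted by strand is not given in the sources used here. Counts that could belong to near-identical copies are therefore uncertain.

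Groups came from the treatment labels. The 16 libraries of 6 h were fitted together in R 4.3.3 with edgeR 4.0.16 (filterByExpr, TMM factors, quasi-likelihood F test, Benjamini-Hochberg adjustment over 18618 genes), and all adjusted p-values are of this test. Standard errors are the log2 fold change divided by the square root of F. The biological coefficient of variation was 10.6%. FPM are counts scaled to 1000000 with TMM factors. EGF+AngII against AngII and the interaction came from the same fit. The 24 h comparison came from a joint fit of the control and EGF libraries of both times, adjusted over 21390 genes. Fold changes compare a gene between groups. Between genes, FPM say only how many reads stand behind a value, since gene length was not used. Pairs of libraries in a group differed by more than sampling noise (chi-square per gene 2.07 to 12.4, where 1 is expected of 1 library counted again), so none was merged.

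Named were the 15 largest rises and falls without overlap among called genes, the key genes and up to 4 called members of each of 40 lists and of gene classes, AGTR1 and EGFR; members that passed the false discovery rate alone, the genes of over 100 FPM and those of the other observations were named after their values were seen. Members and lists were chosen with earlier results of these data known. Promoters were the 500 bases before the canonical start (GRCh37), present for 17409 genes. The procedure was tested on simulated counts. Alternatives were DESeq2 1.42.0, its size factors, no filter and other thresholds. Further ones were the compared libraries only, a library series term, protein-coding genes and each library left out. The GC offset, each series alone and the omission of both control library 1 and EGF library 1 were added after seeing the data. Intervals cover counting error only. Some items are not reported here.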

Additional observations from a re-analysis of the deposited data

Results flagged for a closer look

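Among 300 groups of 4 libraries examined 17 had a library that stood apart from the other 3 by Dixon's criterion, where chance gives about 1 in 20. EGF library 1 was the outlying library in 6 of the 17 and control library 1 in 4.

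EGF library 1 was apart in ARC (12.3 FPM against 9.22 in the nearest library, Dixon ratio 0.969), KLF5 (35.2 against 29.1, 0.936), INSIG1 (359 against 318, 0.855), NEFM (578 against 695, 0.904), RPS6KA2 (14.7 against 20.1, 0.894) and ADAMTS1 (386 against 401, 0.83). Control library 1 was apart in SPRED1 (35.4 against 24.1, 0.954), VEGFA (42.1 against 36.8, 0.929), PDK2 (13 against 16.7, 0.839) and GFI1 (3.70 against 6.32, 0.851).

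EGF library 2 was apart in BMF (11.8 against 9.94, 0.837), EPHA4 (25.3 against 30.1, 0.873) and RRM2 (187 against 179, 0.842). EGF library 3 was apart in KLF10 (65.8 against 73.9, 0.894) and CDKN1A (81.9 against 89.7, 0.833), and EGF library 4 in ETV5 (9.94 against 7.36, 0.843) and ID4 (83.1 against 71.0, 0.85).

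The EGF effect on EGR1 differed between the times, by -1.96 on the log2 scale after 24 h relative to 6 h in edgeR's joint fit (adjusted p = 0.0047).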

How the results depend on the processing

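The count of 322 genes was 355 with DESeq2, 324 with its size factors, 367 without the filter on low counts, 227 at a false discovery rate of 0.01, 281 with the compared libraries only, 340 with a library series term, 320 for protein-coding genes and 344 with the GC offset. By the false discovery rate alone it was 1112, that of EGF+AngII against AngII 1104 and that of genes called in both 513. Series 1 alone gave 100, 121 and 59, and series 2 alone 119, 175 and 73, with 2 libraries a group. Each library left out in turn gave 272 to 354 genes, 271 to 384 for EGF+AngII against AngII and 155 to 183 in both. The interaction count of 0 became 48 without the filter. The difference between times, 1 gene, became 51 with DESeq2, 54 without the filter, 11 with a series term, 14 for protein-coding genes and 1 to 3 when single libraries were omitted; the cause was not tested. Of 97 called genes checked in this way, 69 kept the call without each library and 0 turned sign. The named genes BOK, ZNF395, LDHAP4 and AK4P3 were not among those checked. Without control library 1 and EGF library 1 together, 19 of the 145 genes checked lost their call and 4 became called. In that setting 9 of the 40 list medians moved by more than their SD between EGF libraries. Each series alone moved 10, and the GC offset 5. JUN, not called, ranged from -0.22 to 0.00045 when single libraries were omitted and turned to 0.081 in series 2 alone and 0.046 without control library 1 and EGF library 1. No paired analysis was possible because no replicate number stands in the labels. Counting error limits genes of few reads such as ETV5, FOS and TNFRSF12A.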

Other observations

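Among called genes outside the lists, chosen after their values were seen, several receptors and transcription factors rose. The chemokine receptor CXCR4 went from 19.5 ± 4.27 to 36.5 ± 5.44 FPM (0.89, adjusted p = 0.0010 in edgeR's test), the VEGF receptor FLT1 from 12.6 ± 0.402 to 23.5 ± 5.77 FPM (0.89) and the interleukin 6 receptor IL6R from 2.62 ± 0.778 to 6.76 ± 1.58 FPM (1.33). The transcription factors MYB (0.94) and GFI1 (1.05) rose, and WT1 (1.01) was called but lost the call without control library 4, EGF library 1, EGF library 3 or EGF library 4 (adjusted p 0.052 to 0.071). PRKCD, a protein kinase C, rose from 43.6 ± 2.82 to 70.5 ± 10.3 FPM (0.69).

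Other genes of signalling and metabolism fell. The stem cell factor receptor KIT went from 27.9 to 36.3 FPM in the control libraries to 16.3 to 23.6 FPM in the EGF libraries (-0.67; -0.58 without EGF library 2, which is under the fold limit) and MAP2K6, a kinase of p38, from 10.8 ± 0.449 to 6.06 ± 0.926 FPM (-0.83). ACACB, the acetyl-CoA carboxylase that limits fatty acid oxidation, went from 44.9 ± 0.921 to 28.9 ± 2.60 FPM (-0.63), and PDK2, a pyruvate dehydrogenase kinase, from 16 ± 2.03 to 8.40 ± 2.66 FPM (-0.91). ACACB fell short of the fold limit with the GC offset (-0.58). STAT2, a factor of interferon signalling, fell by 0.61 on the log2 scale (0.58 without control library 3), and HDAC11, a deacetylase, by 0.91, with a call that was lost without any of 4 libraries in turn (adjusted p up to 0.128). POU5F1, the pluripotency factor OCT4, whose gene has near-identical pseudogenes, was at 8.55 ± 1.86 and 4.38 ± 0.305 FPM (-0.96), and at 0.17 (adjusted p = 0.73) for EGF+AngII against AngII. The difference between these 2 EGF effects did not pass in edgeR's test (adjusted p = 0.59).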
